A study of Homo sapiens with 6 samples.

Results

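Mitochondrial ribosomal protein genes carry the instructions for the proteins of the ribosome inside mitochondria, and their names begin with MRPL (large subunit) or MRPS (small subunit). The members were taken by rule as the protein-coding genes with such a symbol in the annotation, 78 genes in all, of which 76 (48 MRPL and 28 MRPS) had a row among the 57905 counted genes. Total RNA, 5 μg per sample, of the human multiple myeloma cell line NCI-H929 (H929), whose cells are malignant plasma cells, had been kept for 1 h at 37 °C either without enzyme (control, 3 samples) or with the human IRE1 enzyme, of which 2 μg of a recombinant form spanning residues 467 to 977 was added (IRE1-treated, 3 samples). The enzyme was then inactivated at 95 °C for 5 min, poly(A) RNA was purified, and each sample gave 1 library with 19615715 to 25678499 counts on genes. Everything was done on RNA in a tube, so the samples hold no living cells and no transcriptional response.

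The mitochondrial ribosome makes the few proteins encoded in mitochondrial DNA, all of them parts of the respiratory chain and ATP synthase, on ribosomal RNAs that are also made in the mitochondrion. Its proteins, in contrast, are encoded in the nucleus, translated in the cytosol and imported. Some have counterparts in bacterial ribosomes, and others occur only in mitochondria. IRE1 is the sensor kinase and endonuclease of the endoplasmic reticulum that cuts XBP1 mRNA and, in regulated IRE1-dependent decay, other mRNAs at a CUGCAG-like sequence in a stem-loop. In these libraries the fragment 5′ of a cut is lost from poly(A) RNA, and the fragment that keeps the tail still counts toward the gene.

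The labelled cells and the reaction were checked first. All 9 plasma cell and myeloma markers examined were detected, while the markers MS4A1 (B cell), CD14 (monocyte), HBB (erythroid) and EPCAM (epithelial) had 0 to 3 counts in every library, COL1A1 (fibroblast) had 5 to 13, and the T cell gene CD3E had 890 to 1063. BLOC1S1, a long-known IRE1 substrate, had 607, 584 and 651 normalized counts in the controls and 276, 230.4 and 212 after IRE1. Its log2 fold change was -1.37 ± 0.09 (SE), with an adjusted p of 1.25e-06 in edgeR's quasi-likelihood test, and its groups were far apart. XBP1 had 61124, 58538 and 59921 normalized counts in the controls and 57376, 56865 and 54174 after IRE1. Its log2 fold change was -0.09 ± 0.04 (SE), with an adjusted p of 0.143 (edgeR's quasi-likelihood test), so the gene count of this substrate did not pass the threshold, although every treated sample lay below every control. Normalized counts here are raw counts scaled by each library's total and its TMM factor, a correction that takes most genes as unchanged.

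Of the 76 members with counts, 75 passed edgeR's filter on low counts and were tested. After IRE1, 54 of them were higher and 0 lower at an adjusted p under 0.05, and 21 did not pass. The changes were small. The median log2 fold change was 0.24, about 1.18-fold, with a range from 0.04 (MRPL42) to 0.51 (MRPL33), and the estimate was above 0 in all 75, so that 0 were lower at an unadjusted p under 0.05 as well, in edgeR and in DESeq2. Over the 14398 tested genes, 10.3% were higher and 12.4% lower, the median was 0.00, and 7319 estimates were above 0. The split of all calls moved with the scaling: 1489 higher and 1781 lower genes became 683 and 2596 when libraries were scaled by size alone, and the members then counted 29 higher and 0 lower, with a median of 0.16. None of the members passed the threshold downward in any of the settings tried.

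In 61 of the 75 members every treated sample lay above every control, against 19.1% of all tested genes, and in 0 every treated sample lay below every control, against 20.0%. The raw counts behind these members ran from 106 to 5272 per library, so that counting error was small for most of them. The members together took 0.425% ± 0.00201 (SD, n = 3) of the gene counts in the controls and 0.469% ± 0.0142 (SD, n = 3) after IRE1. The treated samples were not alike. The median member stood 0.33 above the control mean on the log2 scale in IRE1 replicate 1, 0.25 in replicate 2 and 0.15 in replicate 3, and IRE1 replicate 1 held the highest value of 57 of the 75 members. That library also had the lowest number of gene counts (19615715) and the lowest TMM factor (0.947, against 0.980 and 0.996 in the other treated samples), and the part of these properties in the result was not tested. Leaving it out gave 46 higher members with a median of 0.19. Of the 6 libraries, leaving out control replicate 1 (30 higher) or control replicate 2 (28 higher) lowered the count by over 1.5 times, while the medians stayed at 0.24 in both fits. Higher calls over all tested genes fell as well, from 1489 to 709 without control replicate 1 and 638 without control replicate 2.

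**Figure D1:**
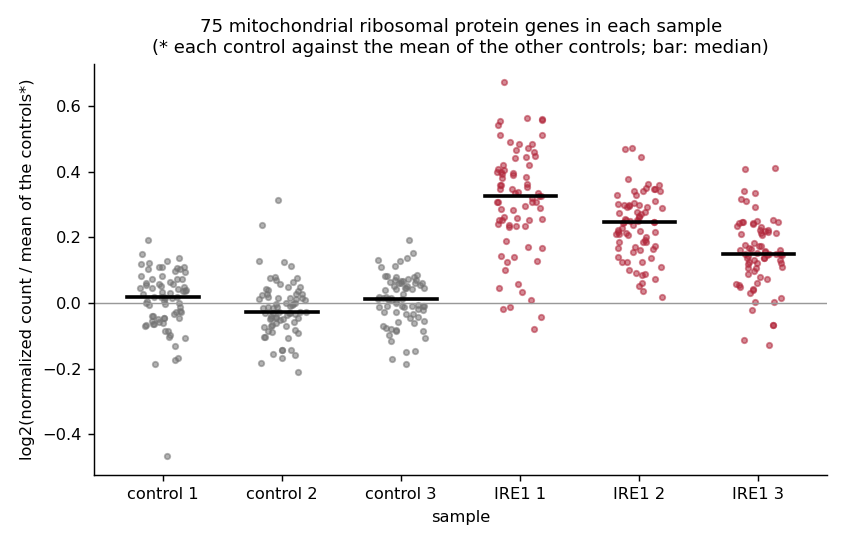
Log2 ratio of the normalized count of each of the 75 tested members (points) to the mean of the controls, by sample, where each control is set against the other controls. Bars mark medians, which lie between -0.03 and 0.02 in the controls and at 0.33, 0.25 and 0.15 in IRE1 replicates 1, 2 and 3.

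The medians of both subunits were equal to 2 decimals. In the large subunit, 34 of 49 tested members were higher and the median log2 fold change was 0.24. In the small subunit it was 19 of 25, with a median of 0.24. Among proteins with a bacterial counterpart, 22 of 29 were higher in the large subunit (median 0.24) and 12 of 16 in the small subunit (median 0.23). Among those found only in mitochondria, 12 of 20 (median 0.23) and 7 of 9 (median 0.27) were higher. MRPS18A and MRPS30 were placed in the large subunit, where their proteins sit despite the symbols. MRPS36 was placed in neither, since its protein is now known as a part of the alpha-ketoglutarate dehydrogenase complex of the citric acid cycle. Differences between these classes were not tested.

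**Figure D2:**
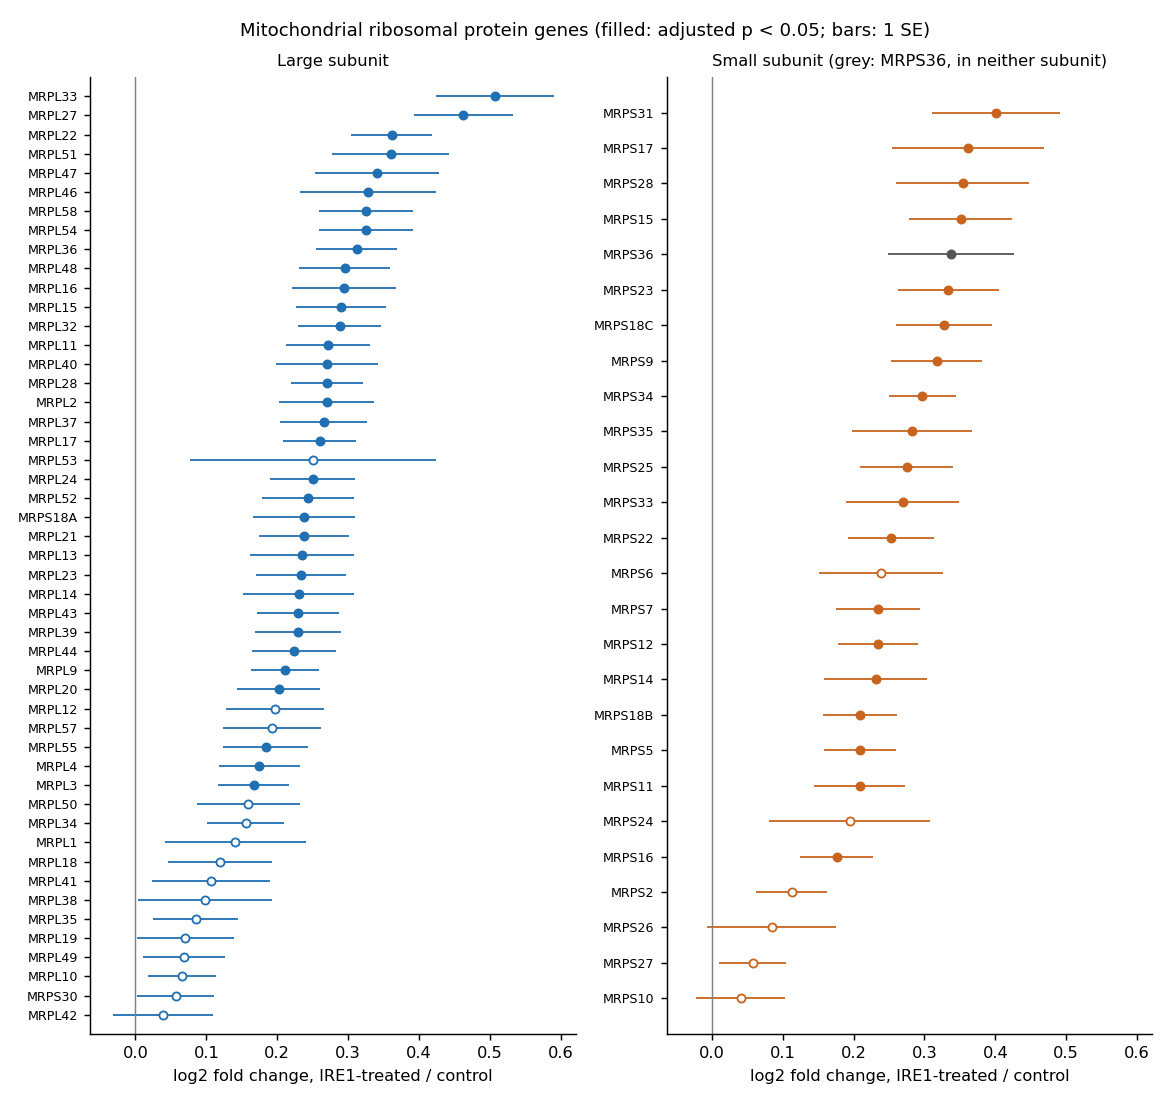
Log2 fold change of each tested member, IRE1-treated over control, with bars of 1 SE, large subunit on the left and small subunit with MRPS36 (grey) on the right. Filled points passed the threshold (54), open points did not (21), and the values run from 0.04 for MRPL42 to 0.51 for MRPL33.

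The change was largest in a pair of large subunit genes. MRPL33 (chr2:27994584-28210954, plus strand, GRCh37), which shares exons with BABAM2 on the same strand, had 449, 403 and 418 normalized counts in the controls and 674, 576 and 561 after IRE1. It rose by 42.6% (log2 fold change 0.51 ± 0.08 SE, adjusted p = 0.000735 in edgeR's quasi-likelihood test), and the groups did not overlap. MRPL27 (chr17:48445218-48450568, minus strand), the counterpart of a bacterial protein that reaches into the site of peptide bond formation, had 447, 425 and 433 in the controls and 620.3, 603 and 579 after IRE1. It rose by 38.0% (0.46 ± 0.07, adjusted p = 0.000413 by edgeR's test), again without overlap, and it shares no exon with another gene and has no named pseudogene.

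MRPS31 (chr13:41303264-41345326, minus strand), a small subunit protein found only in mitochondria, had 329.8, 296 and 331 in the controls and 446, 442 and 379 after IRE1, a log2 change of 0.40 ± 0.09 (adjusted p = 0.00539, edgeR). It has 4 named pseudogenes, with which reads can be shared. MRPL22 (chr5:154320633-154348971, plus strand), whose bacterial counterpart lines the tunnel through which the new protein leaves, had 1025, 936 and 966 in the controls and 1279, 1254 and 1229.6 after IRE1. Its log2 change was 0.36 ± 0.06 (adjusted p = 0.000544, edgeR), with the treated samples close together and clear of the controls. The other members among the 10 highest were MRPS17 and MRPL51 (log2 fold change 0.36 each), MRPS28 and MRPS15 (0.35 each), and MRPL47 and MRPS36 (0.34 each), all higher in every treated sample than in every control. Among them MRPL51, MRPS15 and MRPL47 showed the spread of the treated samples plainly: MRPS15 had 2019, 1883 and 1978 in the controls against 2878, 2372 and 2261.

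At the other end of the called members the rise was 12.3 to 16.9%. MRPL3, MRPL4 and MRPS16 were the 3 lowest that passed. MRPL3, which in bacterial ribosomes is placed next to the catalytic site, had 1888, 1862 and 1769 normalized counts in the controls and 2028, 2114 and 2054 after IRE1. Its log2 change was 0.17 ± 0.05 (adjusted p = 0.0251, edgeR). MRPL4 had 4458, 4533 and 4694 in the controls and 5562, 5188 and 4701 after IRE1, so that its lowest treated sample was nearly level with its highest control (0.17 ± 0.06, adjusted p = 0.038, edgeR). MRPS16 and MRPL55 (0.18 each), MRPL20 (0.20), MRPS11, MRPS5, MRPS18B and MRPL9 (0.21 each) and MRPL44 (0.22) were the rest of the 10 lowest called.

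Among the 21 that did not pass, 8 had treated samples all above the controls. MRPL42, the smallest estimate, had 543, 587 and 533 in the controls and 558, 595 and 556 after IRE1, with overlapping groups and a log2 change of 0.04 ± 0.07. When libraries were scaled by size alone, 68 of the 75 estimates were above 0, and MRPL42 and MRPL19 were at -0.037 and -0.0048. MRPL30 had 8, 6 and 4 raw counts in the controls and 4, 2 and 2 after IRE1, was below the filter and gets no fold change. It shares exons on the same strand with ENSG00000241962 and ENSG00000273155. The identifiers that the annotation gives MRPS21 and MRPL45 were not among the counted ones, so both are named only.

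The shift was set against transcript length, because in these libraries length went with the change over all genes. Over 12225 tested protein-coding genes, Spearman's rho between the longest annotated transcript and log2 fold change was -0.58. Over the 75 members it was -0.17 (all 6 libraries are shared by every point, and genes are not independent replicates). The members are short, with a median longest transcript of 1717 bases against 3922 for tested protein-coding genes. Under 1000 bases, 10 of 13 members were higher with a median log2 fold change of 0.27, next to 165 of 332 protein-coding genes and a median of 0.24. From 1000 to under 2000 bases, 23 of 30 members were higher (median 0.23), next to 515 of 1562 genes (median 0.17). From 2000 to under 4000 bases, 15 of 22 members were higher (median 0.24), next to 485 of 4374 genes (median 0.05). At 4000 bases or more, 6 of 10 members were higher (median 0.23), next to 219 higher and 1593 lower of 5957 genes (median -0.13). The members' medians lay between 0.23 and 0.27 in these bands while those of protein-coding genes fell, a difference that was not tested. An annotated longest transcript need not be the one expressed. In bands of the canonical transcript, chosen after the data were seen, the members' medians were 0.25 (20 of 26 higher), 0.24 (25 of 32), 0.18 (6 of 12) and 0.27 (3 of 5) from the shortest band to the longest. Protein-coding genes under 2000 bases had medians of 0.24 (375 of 698 higher) and 0.15 (611 of 2181) in the same bands. From 2000 bases upward their medians were 0.02 (298 of 4436) and -0.17 (100 of 4910).

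**Figure D3:**
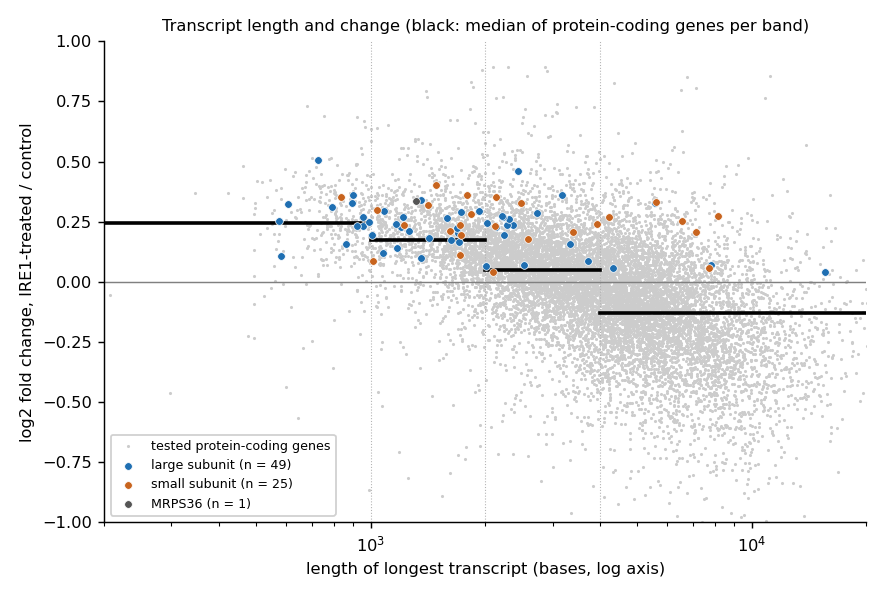
Length of the longest annotated transcript (log axis) against log2 fold change, with tested protein-coding genes in grey, members in colour and the median of the protein-coding genes in each band in black. The grey medians fall from 0.24 through 0.17 and 0.05 to -0.13, while all members lie above 0, and 58 protein-coding genes fall outside the axes.

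When a trend of each library with length and GC content was removed over all genes, 24 of the 75 members were higher and 0 lower, the median log2 fold change was 0.15 and 66 estimates were above 0. With the length of the canonical transcript in that trend, an alternative added after the data were seen, it was 18, 0 and 0.12. Over all 14398 tested genes, 1188 were higher and 779 lower with the first trend removed, and 940 and 585 with the canonical one. Of the 54 called members 19 and 15 were called in these fits. Of the 10 highest called members 4 were still called with the first trend removed. They were MRPL22 (0.37, adjusted p = 0.000593 by edgeR), MRPL33 (0.34, adjusted p = 0.00501), MRPL27 (0.39, adjusted p = 0.00105) and MRPS15 (0.25, adjusted p = 0.0182). MRPS31 (0.27, adjusted p = 0.0544 by edgeR), MRPS17 (0.24) and MRPS28 (0.18) were not, nor were MRPL51, MRPL47 and MRPS36 (0.18, 0.21 and 0.21). Of the 10 lowest called members 2 passed, MRPS5 and MRPS11, while MRPL3 was at 0.05.

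The members with the longest canonical transcripts differed among themselves in the fit reported. MRPS23, a small subunit protein found only in mitochondria, has a canonical transcript of 5609 bases and was named for this length after its values were seen. It had 709, 615 and 674 normalized counts in the controls and 891, 843 and 789 after IRE1, with a log2 change of 0.33 ± 0.07 (adjusted p = 0.00384, edgeR). MRPS25, with a canonical transcript of 4572 bases and a longest one of 8173, was at 0.27 ± 0.07 (adjusted p = 0.00775, edgeR). MRPL19 and MRPL42, with the longest canonical transcripts of all members (7825 and 15557 bases), had 0.07 and 0.04 and did not pass. With the length and GC trend removed, both were called higher. MRPL19 was then at 0.30 (adjusted p = 0.00352, edgeR) and MRPL42 at 0.32 (adjusted p = 0.00927, edgeR). MRPS23 (0.47) and MRPS25 (0.48) were called in that fit as well. With the canonical trend removed, MRPL19 and MRPL42 were at 0.34 each and also passed.

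Since IRE1 cuts at CUGCAG, the letters CTGCAG were searched in the sense strand of the canonical transcript of each gene (GENCODE release 44 on GRCh37), and each match was folded with 15 bases on either side. A site was called a hairpin when its G at position 3, counted from 1 at the 5′ end of the motif, lay in a loop of 5 to 11 bases closed by 3 or more pairs. A match is a description of these letters and not a site of cleavage. Among the 75 tested members, 48 (64.0%) held the letters and 18 (24.0%) held a hairpin, against 85.3% and 35.4% of the 12225 tested protein-coding transcripts. Per kilobase, the members had 0.691 matches and 0.140 hairpins, and all tested protein-coding transcripts 0.806 and 0.124. The median log2 fold change of members with and without a hairpin was 0.24 in both cases. Among protein-coding genes of all lengths together it was -0.06 with and 0.02 without one. Within bands of canonical length the protein-coding medians lay closer. They were 0.21 with and 0.25 without a hairpin under 1000 bases, and 0.13 and 0.15 from 1000 to under 2000. From 2000 to under 4000 bases they were 0.02 and 0.02, and at 4000 or more -0.16 and -0.17. By length of the canonical transcript, a hairpin was held by 3 of 26 members (11.5%, next to 10.5% of protein-coding transcripts) under 1000 bases, 5 of 32 (15.6%, next to 20.4%) from 1000 to under 2000, 5 of 12 (41.7%, next to 32.1%) from 2000 to under 4000, and 5 of 5 (next to 48.7%) at 4000 or more.

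The rule depends on the fold. BLOC1S1 has 3 matches, and the rule accepts the one in exon 2 but not the one in exon 4, at position 448 of the transcript. The exon 4 match lies nearest to the cut described for this mRNA, so the rule can miss a site that IRE1 cuts. By another rule, chosen after these sites were seen, a match was kept when 4 or more pairs could form around a loop of 7 bases that starts with the motif, the form known from XBP1, with no fold computed. The exon 4 match of BLOC1S1 then had 6 pairs and its exon 2 match 0. Of the 75 tested members 1 passed (MRPS5, 5 pairs), against 6.40% of the 12225 protein-coding transcripts. The protein-coding share rose with canonical length. Under 1000 bases 0 of 26 members passed, next to 1.86%, and from 1000 to under 2000 bases 0 of 32, next to 3.90%. From 2000 to under 4000 bases it was 1 of 12, next to 5.18%, and at 4000 or more 0 of 5, next to 9.25%.

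The sites are shown to set both of these BLOC1S1 matches beside those of 4 members that were higher after IRE1 and hold a folded hairpin, among them MRPS5. Capitals mark the motif, and each line runs 5′ to 3′ on the transcript.
BLOC1S1 exon 4: tacaaagggcagCTGCAGtctgccccttcc
BLOC1S1 exon 2: gagaggctatcaCTGCAGcgacctgcctga
MRPS5: acggaaaaggagCTGCAGgtttttctattg
MRPL4: tgcgcggcgatgCTGCAGttcgtccgggcc
MRPS15: aaccagtggggcCTGCAGcctcgaagtctc
MRPL22: agaccatggaacCTGCAGttttaataaatg

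In BLOC1S1 (coding sequence, plus strand) the capitals lie at chr12:56113373-56113378 in exon 4 and at chr12:56110741-56110746 in exon 2. In the members they lie at chr2:95770385-95770390 in exon 7 of MRPS5 (coding sequence, minus strand), chr19:10362933-10362938 in exon 1 of MRPL4 (coding sequence, plus strand), chr1:36929754-36929759 in exon 1 of MRPS15 (coding sequence, minus strand) and chr5:154348160-154348165 in exon 7 of MRPL22 (3′ UTR, plus strand). The share of the transcript 5′ of the match was 79.5% for exon 4 and 31.1% for exon 2 of BLOC1S1, 23.5% in MRPS5, 3.53% in MRPL4, 23.7% in MRPS15 and 74.4% in MRPL22. The log2 fold changes of MRPS5, MRPL4, MRPS15 and MRPL22 were 0.21, 0.17, 0.35 and 0.36, and that of BLOC1S1 was -1.37. Whether any of these matches was cut cannot be read from gene counts.

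The members differ widely in level, given as reads per kilobase of the longest annotated transcript, scaled by library total and TMM factor (RPKM). The median in the controls was 22.7 RPKM, and the range ran from 1.60 to 153. MRPS34 (153 ± 1.43 SD, n = 3), a small subunit protein found only in mitochondria, and MRPL24 (151 ± 3.33) were the highest and did not differ beyond their spread. MRPL4 (126 ± 3.34), MRPL9 (113 ± 2.99) and MRPL37 (104 ± 2.94) followed. The order depends on the length used. With the canonical transcript, MRPL24 (170) and MRPL4 (168) stood above MRPS34 (159). Over all exonic bases MRPL4 was at 50.2 RPKM, rank 10. MRPS25 (5.04), MRPS6 (3.57), MRPL19 (3.42), MRPL46 (2.35) and MRPL42 (1.60) were lowest. These all have a long annotated transcript, 3934 to 15560 bases, and with the canonical transcript MRPL46 stood at 13.2 and MRPS6 at 15.1 RPKM. Each of the 5 highest rose after IRE1, MRPS34 by a log2 fold change of 0.30, MRPL24 by 0.25, MRPL4 by 0.17, MRPL9 by 0.21 and MRPL37 by 0.27.

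**Figure D4:**
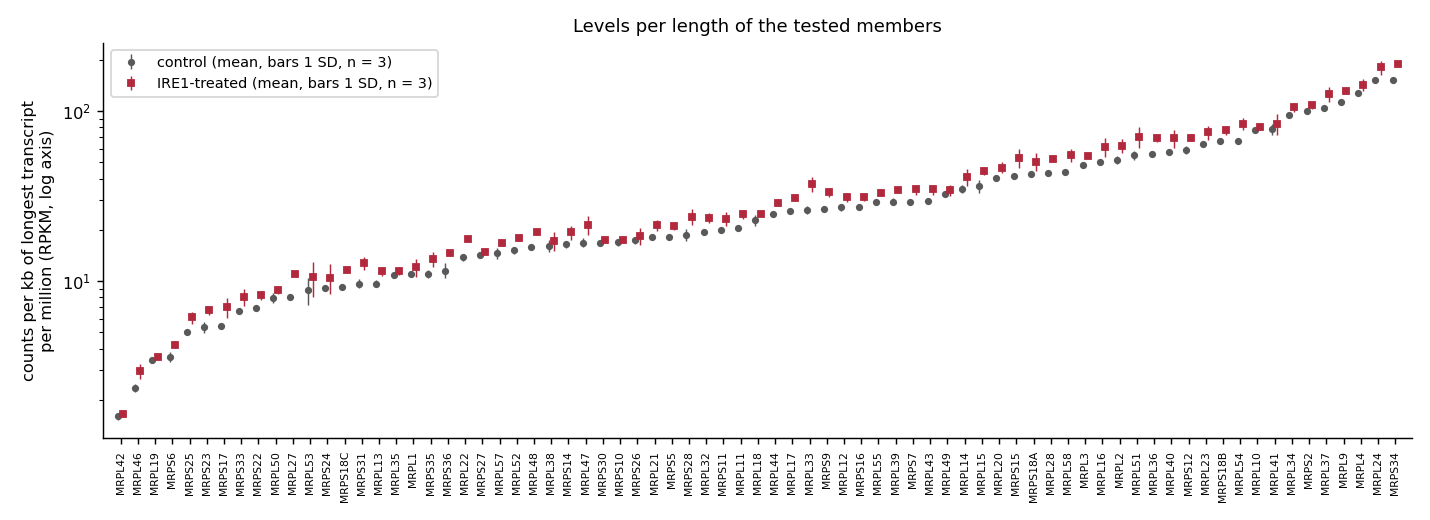
Level of each of the 75 tested members in RPKM (log axis, by longest transcript), controls as circles and IRE1-treated samples as squares, with bars of 1 SD (n = 3). The levels run from 1.60 for MRPL42 to 153 for MRPS34 in the controls.

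Other parts of the mitochondrial ribosome were read from lists fixed with earlier results of these data known. Of 5 ribosome proteins with other names, 3 were higher: GADD45GIP1 (log2 fold change 0.29), AURKAIP1 (0.21) and DAP3 (0.14). CHCHD1 was at 0.15 and PTCD3 at -0.06, and neither passed. The ribosomal RNAs were higher too. MT-RNR1, the small subunit RNA, had 5359, 5589 and 5775 normalized counts in the controls and 7705, 6096 and 5886 after IRE1, a log2 change of 0.23 ± 0.08 (adjusted p = 0.039, edgeR). MT-RNR2, the large subunit RNA, was at 0.17 ± 0.05 (adjusted p = 0.0159, edgeR). MT-TV, a transfer RNA that takes the place of a small ribosomal RNA in this ribosome, had 0 counts in every library.

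Factors that build or use the ribosome were counted in the same way, next to all tested genes (10.3% higher and 12.4% lower). Of 27 assembly factors 25 were tested, 3 were higher and 0 lower, and the median log2 fold change was 0.07. Those higher were NDUFAB1 (0.24), RBFA (0.23) and MTERF4 (0.23), and MTERF4 did not pass in DESeq2. In both tools 1 factor was lower at an unadjusted p under 0.05. Of 17 translation factors 1 was higher (TSFM, an elongation factor, 0.20) and 1 lower (LRPPRC, which binds mitochondrial mRNAs, -0.17), 5.9% each. Their median was 0.08, and TSFM did not pass in DESeq2. LRPPRC has a long transcript (10249 bases) and was at 0.07 once the trend with length and GC was removed. Of the 5 tested transcription factors 0 passed in edgeR or DESeq2, also 0 at an unadjusted p under 0.05 (median -0.04). The difference between these lists and the members was not tested.

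The cytosolic ribosomal protein genes and the nuclear genes for respiratory chain subunits were also mostly higher. Of 81 tested cytosolic ribosomal protein genes 80 were higher, with a median log2 fold change of 0.32, and of 81 tested respiratory chain genes 66 were higher (median 0.26). The median canonical transcript was 785 bases for the former, 763 for the latter and 1224 for the members. All these groups share the same libraries, so their values stand side by side without a test.

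**Figure D5:**
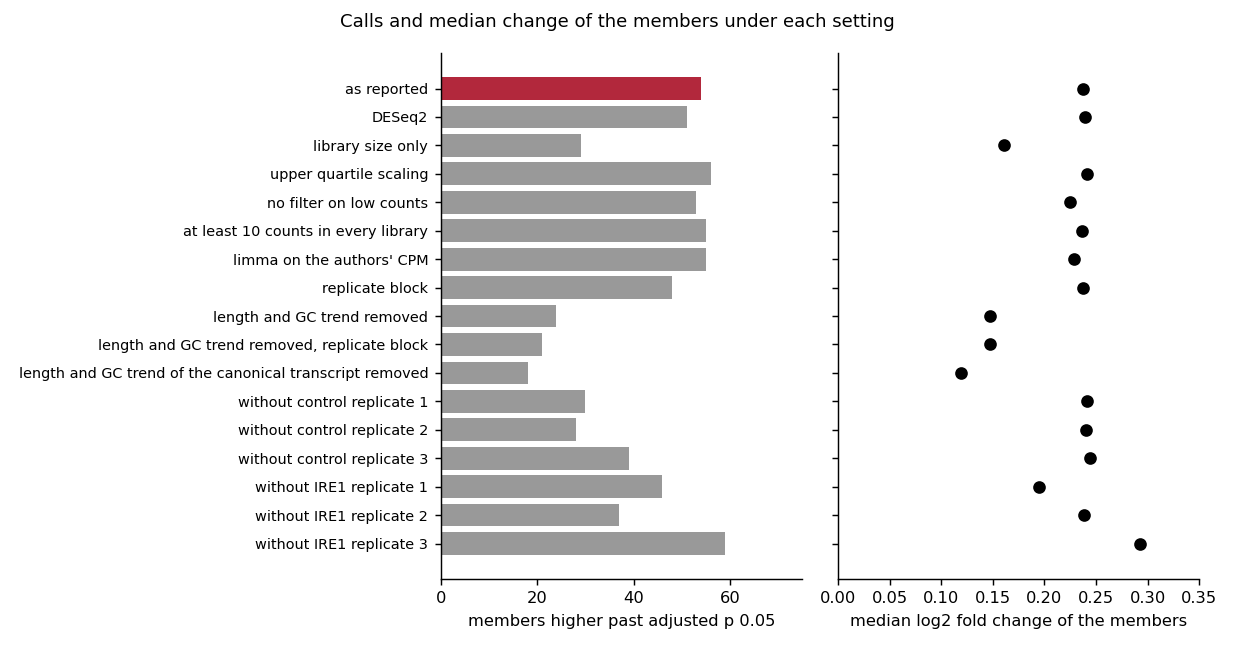
Number of members higher past the threshold (left, bars from 0) and their median log2 fold change (right) in the fit reported and in each alternative. The counts run from 18 with the trend of the canonical transcript removed to 59 without IRE1 replicate 3, and the medians from 0.12 to 0.29.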

How the data were processed

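RNA-seq of 3 IRE1-treated and 3 control samples was used. Reads had been trimmed by Cutadapt 1.12, mapped by STAR 2.5.3a on GRCh37 with Ensembl 87 genes and assigned to genes by HTSeq 0.6.1p1, and the authors deposited the raw counts. The strand and overlap settings are not given in the sources used here, so reads of a gene and of one that overlaps it could not be told apart. They also deposited a CPM table made with edgeR 3.24.3, which served only in an alternative. The 5 HTSeq summary lines, 21.4 to 23.2% of all counts, were left out.

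Genes were fitted together with edgeR 4.0.16 in R 4.3.3 (filterByExpr, TMM, quasi-likelihood test, Benjamini-Hochberg adjustment over 14398 genes, threshold 0.05, no covariates). Alternatives included DESeq2 1.42.0, limma 3.58.1 (pseudocount 1), another scaling, other filters, the replicate block, a loess trend (span 0.5) and each library left out. Each sample had its own lane, so lane and sample cannot be told apart, and the p-values measure only the spread between these samples. No pair of libraries was a copy of another.

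Names, lengths and positions came from GENCODE release 44 lifted to GRCh37, which names 55538 of the 57905 identifiers. Sites were folded with ViennaRNA 2.7.2. Members, lists and tests were chosen with earlier results of these data known. Members named with values are the 10 highest and 10 lowest log2 fold changes past the threshold (mean normalized count 100 or more), the 5 highest and 5 lowest levels per length, those not tested, and those whose call reversed, plus, of each list, up to 5 past the threshold. Others are said to be outside this rule or illustrate a class.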

Additional observations from a re-analysis of the deposited data

How the results depend on the processing

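The members' median stayed above 0 in every alternative, and 0 members were lower in any. The count of higher members (54) was 51 with DESeq2, 56 with upper quartile scaling, 53 without a filter on low counts and 55 with limma on the authors' CPM. It was 29 with library size only, 24 with the length and GC trend removed, 21 with that trend removed and the replicate block, and 18 with the trend of the canonical transcript removed, which was added after seeing the data. The median (0.24) was then 0.15, 0.15 and 0.12 for these trends. Over all tested genes, 1188, 1045 and 940 were higher with these trends removed, against 1489 in the fit reported. Leaving out 1 library gave 28 to 59 higher members, next to 638 to 2091 higher genes among all those tested. Leaving out members that share exons or have a pseudogene left 13 of 19 higher.

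The labels do not say whether samples with the same replicate number form a pair. Same-numbered deviations correlated at -0.07, -0.04 and -0.19 and so gave no sign of pairing, though 3 samples per group cannot exclude it. With the replicate block 48 members were higher, all 48 among the 54. MRPL19 was at -0.0048 and MRPL42 at -0.037 with library size only. LRPPRC was at 0.0745 with the trend removed, 0.0731 with the block as well and 0.0476 with the canonical trend. The cause was not tested. Across the members and list genes named, 448 values kept direction and side of the threshold, 179 lost the threshold and 13 gained it. The level per length (median 22.7 RPKM) was 17.3 over all exonic bases and 32.7 over the canonical transcript. Depth limits chiefly MRPL30 and MRPL53.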
